A study of Mus musculus with 4 samples.

Results

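The genes described here are those of the Rab GTPases and of the SNARE families Stx, Vamp and Snap, taken by symbol from arrays of mouse dendritic cells (DC). A gene was a member if its annotation gave a single symbol that starts with Rab, Stx, Vamp or Snap followed by a digit, and its brightest probe set by mean signal over the 4 arrays stood for it. This gave 80 of 12393 genes, of which 56 have a Rab, 12 an Stx, 7 a Vamp and 5 a Snap symbol. Of the 80, 50 are Rab GTPases and 23 are SNAREs. The other 7 carry the name without belonging to either kind: Rab3il1, Rab3ip, Rab3gap2, Rab11fip5 and Rab5if encode Rab partners, Rab26os is a transcript named for the strand opposite Rab26, and Snap91 encodes a clathrin adaptor. No member was left out for a low signal, so all 80 were tested.

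RNA came from bone marrow DC of C57BL/6 mice, and the design text states that it was taken from CD11c cells. Immature DC were set against DC that NKT cells (natural killer T cells, which recognise lipids on CD1d) had modulated, with 2 arrays in each of the 2 groups; cell numbers, duration and age are not stated in the labels. The design text speaks of triplicates, and 2 arrays per group were analysed here. Whether the arrays of a group came from separate cultures is not stated, so the p-values reflect array-to-array spread that may be purely technical. The comparison asks how modulation by NKT cells altered DC transcripts.

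Rab GTPases are small switch proteins. In the form bound to GTP each sits on a particular membrane and recruits effectors that move, tether and sort vesicles. SNAREs then drive fusion: a vesicle SNARE such as a VAMP zips together with syntaxins and SNAP25 family proteins on the target membrane. In DC these proteins serve uptake of antigen, maturation of phagosomes, traffic of MHC molecules and release of cytokines.

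In NKT-modulated DC a minority of these genes changed. Rab30, a Rab of the Golgi, rose 3.51-fold and Rab20, a Rab of maturing phagosomes, rose 2.06-fold. Rab7b, a Rab of late endosomes and the Golgi, fell 2.47-fold, and Vamp1, Rab24 and Rab3d fell by 2.25-fold, 2.08-fold and 2.02-fold. Of the 80 members 6 rose and 7 fell, 16.2% in all, at an adjusted p under 0.05 (limma, Benjamini-Hochberg over all 22626 probe sets, n = 2 arrays per group throughout). Among all genes 12.9% were called, 5.99% higher and 6.9% lower, so the share among the members lay near that of the arrays as a whole. The median log2 change was -0.06 for the members and -0.04 for all genes. Without further normalization 3 members rose and 6 fell (4.51% and 8.29% of all genes), and after cyclic loess 8 rose and 6 fell (6.78% and 5.77% of all genes). Without the intensity trend 2 rose and 3 fell (3.1% and 2.19% of all genes), and leaving out single arrays left 1 to 3 higher and 2 to 4 lower (3.2% to 4.12% and 2.46% to 3.28% of all genes). The normalized values of the groups did not overlap for 44 members (55.0%), against 56.3% of all genes.

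**Figure D1:**
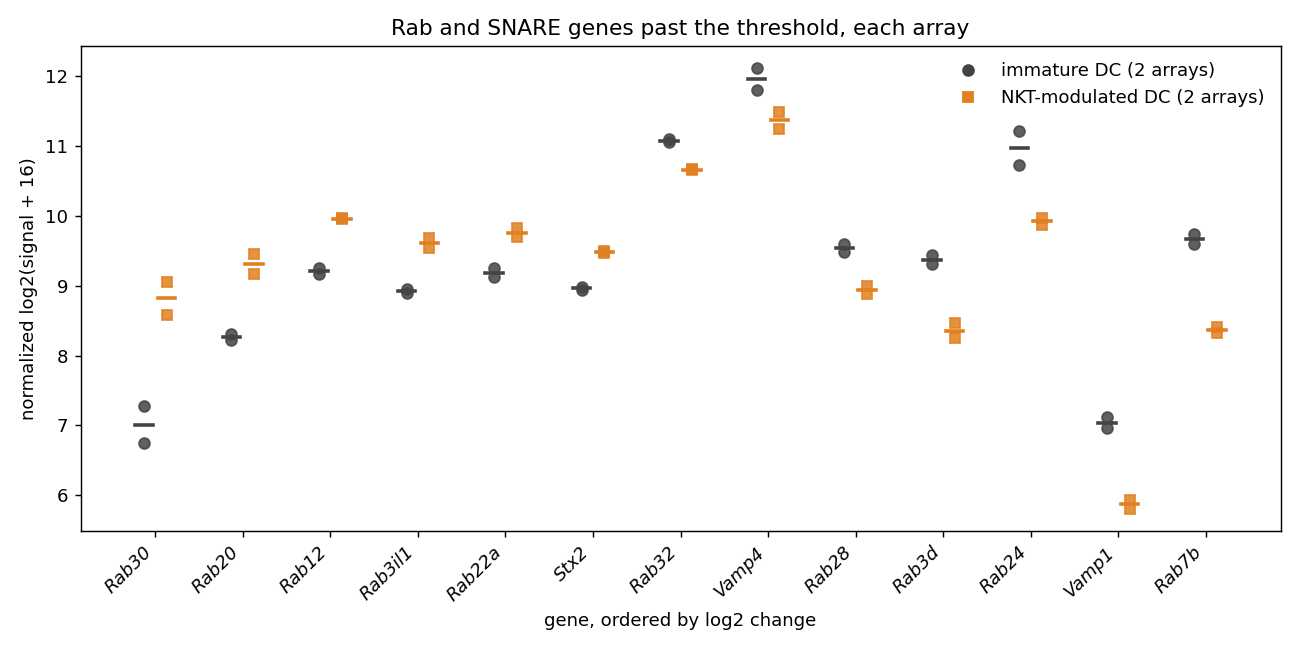
Normalized log2(signal + 16) of the 13 members past the threshold, for each array; dots are the 2 immature and squares the 2 NKT-modulated arrays, and bars are group means. The groups do not overlap for any of the 13, from Rab30 at a log2 change of 1.81 to Rab7b at -1.30. The threshold itself picks genes with separated groups, and 56.3% of all genes had no overlap. Heights cannot be compared between genes, since each probe set has its own brightness.

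Markers of DC and of other cells were read in the same arrays. Of 12 measured markers of T and NKT cells 8 rose and 0 fell, and their summed signal was 978 to 999 in the immature arrays against 5004 to 6696. Cd3e, a chain of the T cell receptor complex, had signals of 10.4 and 7.11 against 395 and 199.8. Dendritic cell markers were bright in both groups, with summed signals of 53371 and 54131 against 63463 and 57063, and Itgax, the gene of CD11c, had signals of 5442 and 5537 against 5252.5 and 4643. Of the 10 dendritic cell markers 2 rose (Batf3 by 1.74 and Irf8 by 0.67 on the log2 scale) and 0 fell. In the lists for NK cells, B cells, neutrophils and macrophages 1 marker each rose (Gzma, Cd79b, Ngp and Mertk) and 0 fell, and in that for mast cells and basophils 0 changed by limma. The lists for B, NK and mast cells summed to at most 352 in any array, and Ncr1, an NK cell receptor, stayed at 3.46 to 4.26. The neutrophil list summed to 358 and 326 in immature DC against 590 and 462. Macrophage markers were bright in all 4 arrays, with sums of 20927 and 19450 against 22050 and 20999. The 3′ to 5′ signal ratio of Gapdh, a sign of RNA quality, was 1.76 and 1.44 for immature DC against 1.87 and 1.98. The part of T cell RNA or of RNA quality in the changes below was not tested. In such bulk samples, fewer cells of a type and less RNA per cell cannot be told apart.

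To show the DNA next to the genes that moved, the 250 bases before the transcription start were read for the called members with the 2 steepest rises and 2 steepest falls among those with a single start in the RefSeq promoter table (GRCm38.p6). They are written 5′ to 3′ on the strand of the gene. Capitals mark matches, on either strand and with overlaps allowed, to the interferon gamma activated site TTCNNNGAA (GAS), the core AANNGAAA of sites for interferon regulatory factors (IRF) or the E-box CACGTG.
Rab20, chr8:11478641-11478890, minus strand: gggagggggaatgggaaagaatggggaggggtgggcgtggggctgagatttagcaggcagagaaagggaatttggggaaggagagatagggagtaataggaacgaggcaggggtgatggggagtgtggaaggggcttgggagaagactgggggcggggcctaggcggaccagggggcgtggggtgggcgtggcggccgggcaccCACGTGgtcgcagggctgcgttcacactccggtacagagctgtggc
Rab12, chr17:66519671-66519920, minus strand: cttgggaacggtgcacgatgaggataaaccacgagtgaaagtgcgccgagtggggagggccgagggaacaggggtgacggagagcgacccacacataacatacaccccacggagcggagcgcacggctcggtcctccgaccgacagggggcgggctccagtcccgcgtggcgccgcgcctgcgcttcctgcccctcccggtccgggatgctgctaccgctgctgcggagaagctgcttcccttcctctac
Vamp1, chr6:125215331-125215580, plus strand: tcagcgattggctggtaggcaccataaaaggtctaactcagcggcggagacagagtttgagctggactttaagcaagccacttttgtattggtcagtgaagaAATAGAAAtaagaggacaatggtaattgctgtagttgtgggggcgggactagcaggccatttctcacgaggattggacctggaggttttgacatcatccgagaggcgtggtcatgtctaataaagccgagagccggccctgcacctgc
Rab24, chr13:55321981-55322230, minus strand: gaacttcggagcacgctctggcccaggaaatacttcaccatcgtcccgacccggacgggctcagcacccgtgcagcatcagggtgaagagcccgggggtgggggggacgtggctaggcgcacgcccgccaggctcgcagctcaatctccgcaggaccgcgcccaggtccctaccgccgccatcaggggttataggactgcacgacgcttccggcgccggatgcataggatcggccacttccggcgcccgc

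Rab20 carried 1 E-box and Vamp1 carried 1 IRF core, while the windows of Rab12 and Rab24 held no match to these letters. Of the 80 members, 68 were in the table, with 88 windows. The E-box was in 11.4% of the members' windows and 6.02% of all 32851 windows; the called genes with one were Rab20, Rab3il1 and Vamp4. GAS letters were in 6.82% against 7.02%, and IRF core letters in 9.09% against 21.3%. The called genes with an IRF core were Rab28 and Vamp1, and the GAS letters were in 0 of the 5 higher and 6 lower genes whose window was given. The members' windows had a median GC content of 59.6%, against 52.4% for all windows, and a median of 15 CG pairs against 6. The E-box letters hold a CG pair, and the part of base composition in these shares was not tested. Matches of letters are a description and not evidence that a factor binds there.

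Among the 12 Rabs of early and sorting endosomes, which receive freshly internalised cargo, 2 rose and 1 fell, with changes from -1.06 to 1.27. Of all genes 5.99% rose and 6.9% fell. The role groups here and below were too small for such counts to describe a compartment. Rab20 had signals of 284 and 345 in immature DC and 528 and 637 in NKT-modulated DC. Both NKT-modulated arrays lay above both immature arrays, and the log2 change was 1.04 ± 0.15 (SE; adjusted p = 0.00802, limma); without NKT-modulated replicate 2 it was 0.90, with adjusted p = 0.0513. Rab22a, which controls return of endocytosed MHC class I to the surface, had signals of 593 and 620.2 against 784 and 836. Its groups did not overlap, with a change of 0.57 ± 0.11 (adjusted p = 0.0264). Its other 2 probe sets were not called, with changes of -0.15 and 0.09, and over the mean of its probe sets the change was 0.17 (adjusted p = 0.500). Leaving out any single array gave Rab22a adjusted p from 0.0607 to 0.131.

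Rab24, linked to autophagy and placed in this group by hand, moved the other way. Its signals were 1629 and 2536 in immature DC against 949.8 and 869, without overlap. The change was -1.06 ± 0.16 (adjusted p = 0.0118), and its other probe set fell too, by 0.79. Without NKT-modulated replicate 1 or 2 Rab24 had adjusted p = 0.0577 and 0.0662. Rab4a, a Rab of fast recycling, was dim, with signals of 33.6 and 43.4 against 139.99 and 81.9. Its change of 1.27 ± 0.31 did not pass the threshold (adjusted p = 0.0539), though it did after cyclic loess (adjusted p = 0.0405).

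The best known early endosome Rabs showed no call. Rab5a, the organiser of early endosomes, had signals of 2368 and 2797 against 2359.6 and 2520.3, with overlapping groups. The 95% confidence interval of its log2 change ran from -0.27 to 0.16. Rab14, which delays fusion of phagosomes with lysosomes, had signals of 8684 and 9587 against 8330.5 and 8267, and an interval from -0.42 to 0.02. The other probe sets of Rab14 had changes from -0.05 to 0.51, so its direction depends on the probe set. Rab21 and Rab31 had changes of 0.34 and -0.28 (adjusted p = 0.0618 and 0.169).

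None of the 5 Rabs of recycling endosomes, which return receptors to the surface, was called by limma at the threshold. Over all genes 12.9% were called and 28.2% had an unadjusted limma p under 0.05, as did 1 of these 5. Rab11a, the main Rab of this compartment, had signals of 4541 and 4966 in immature DC against 4603 and 4123. Its interval ran from -0.33 to 0.04. The gene with the low unadjusted p was Rab15, with signals of 206 and 205 against 270.2 and 259 and a change of 0.55 ± 0.16 (adjusted p = 0.0888).

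Among the 4 Rabs placed with late endosomes and lysosomes 2 fell and 0 rose, against 6.9% and 5.99% of all genes. Rab7b had signals of 831 and 857 in immature DC against 288 and 297. The gap between groups was many times the spread within them, and the change was -1.30 ± 0.12 (adjusted p = 0.00191). Its dimmer probe set fell by 2.23, from signals of 389 and 580.4 to 67.5 and 91.8. Rab7b stayed past the threshold in all 13 alternatives tried at 0.05.

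Rab7, the Rab that drives fusion with lysosomes, had signals of 5839 and 5362 against 5889.6 and 5483. Its groups overlapped, and the interval of its change ran from -0.25 to 0.22. That interval does not reach the change of Rab7b, whose own interval ran from -1.60 to -1.01; the difference between the paralogs was not tested. Rab9, which acts in return of receptors from late endosomes to the Golgi, had an interval from -0.26 to 0.19. Rab28, known mostly from cilia and placed in this group by hand, had signals of 695 and 854 against 429 and 458. It fell by 0.60 ± 0.12 (adjusted p = 0.0261), while its dimmer probe set had a change of 0.26 (adjusted p = 0.486), and over their mean the change was -0.17 (adjusted p = 0.459). Leaving out any single array gave Rab28 adjusted p from 0.0757 to 0.131.

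Of 10 Rabs of lysosome-related organelles and secretory granules, 2 fell and 0 rose, against 6.9% and 5.99% of all genes. Rab3d, a Rab of regulated secretory granules, had signals of 616 and 764 against 271 and 311. The groups were far apart, with a change of -1.02 ± 0.14 (adjusted p = 0.00707). Another of its 4 probe sets was called lower, at -0.87, and the remaining 2 had changes of -0.51 and -0.35. Like Rab7b, Rab3d stayed past the threshold in all 13 alternatives at 0.05.

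Rab32, which with Rab38 directs cargo to lysosome-related organelles, had signals of 2090.4 and 2296 in immature DC against 1585 and 1537. The arrays of a group were close and the groups did not overlap; the change was -0.42 ± 0.08 (adjusted p = 0.0256). Leaving out any single array gave Rab32 adjusted p from 0.0739 to 0.128. Its paralog Rab38 had signals of 238 and 241 against 237 and 196, which did not overlap. After normalization its groups overlapped, with a change of 0.07 and an interval from -0.34 to 0.49. Rab29, which belongs to the same branch of the family, had a change of -0.33 (adjusted p = 0.110).

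Rab27a, the Rab of cytotoxic granule and exosome release, was dim: its brightest probe set gave 57.0 and 30.1 against 51.5 and 33.5. The groups overlapped and the interval was wide, from -0.78 to 0.78, so a change within it was not detectable. Of the 10 genes in this group 6 had a mean signal under 100. They include Rab27b, Rab3a, Rab3b and Rab3c, whose signals lay between 3.19 and 42.5.

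Of 11 Rabs of the endoplasmic reticulum and Golgi, 1 rose and 0 fell, against 5.99% and 6.9% of all genes. The rise was the steepest among the members. Rab30 had signals of 143 and 98.3 in immature DC against 486 and 339.9. Replicates differed in both groups, yet the groups were well apart, with a change of 1.81 ± 0.26 (adjusted p = 0.00859). Without NKT-modulated replicate 1 the change was 1.59 with adjusted p = 0.0584; its alternatives ran from adjusted p = 0.000825 to that value. Rab1a and Rab2a, which act in transport between these organelles, had changes of 0.03 and -0.06. Rab6a, a Rab of traffic within the Golgi, had a change of -0.07, and the others lay between -0.58 (Rab6b) and 0.18 (Rab18).

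Of 8 Rabs placed by hand as exocytic or actin-linked, 1 rose and 0 fell, against 5.99% and 6.9% of all genes. Rab12, which controls degradation of recycling receptors, had signals of 555 and 674 against 938 and 943. The NKT-modulated arrays agreed closely and lay above both others, with a change of 0.76 ± 0.10 (adjusted p = 0.00654). Without NKT-modulated replicate 1 or 2 Rab12 had adjusted p = 0.0533 and 0.0515. Rab8b had signals of 7347 and 7261 against 9927 and 8894. Its groups did not overlap, and its change of 0.30 ± 0.07 stopped short of the threshold (adjusted p = 0.0527); with the adjustment over genes in place of probe sets it passed (adjusted p = 0.0452). Its paralog Rab8a had signals of 1825 and 1917 against 1615 and 1569, and an interval from -0.36 to 0.07. The difference between Rab8a and Rab8b was not tested.

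Rab10, which brings receptors such as TLR4 to the surface, depended on the probe set. The brightest gave 3514 and 3544 against 4270.4 and 4118, with a change of 0.25 ± 0.09 (adjusted p = 0.137). A dimmer probe set gave 941 and 1229 against 1466 and 1471 and was called, with a change of 0.55 ± 0.10 (adjusted p = 0.0243). All 3 probe sets of Rab10 had changes above 0, and their mean passed too, at 0.40 (adjusted p = 0.0242).

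**Figure D2:**
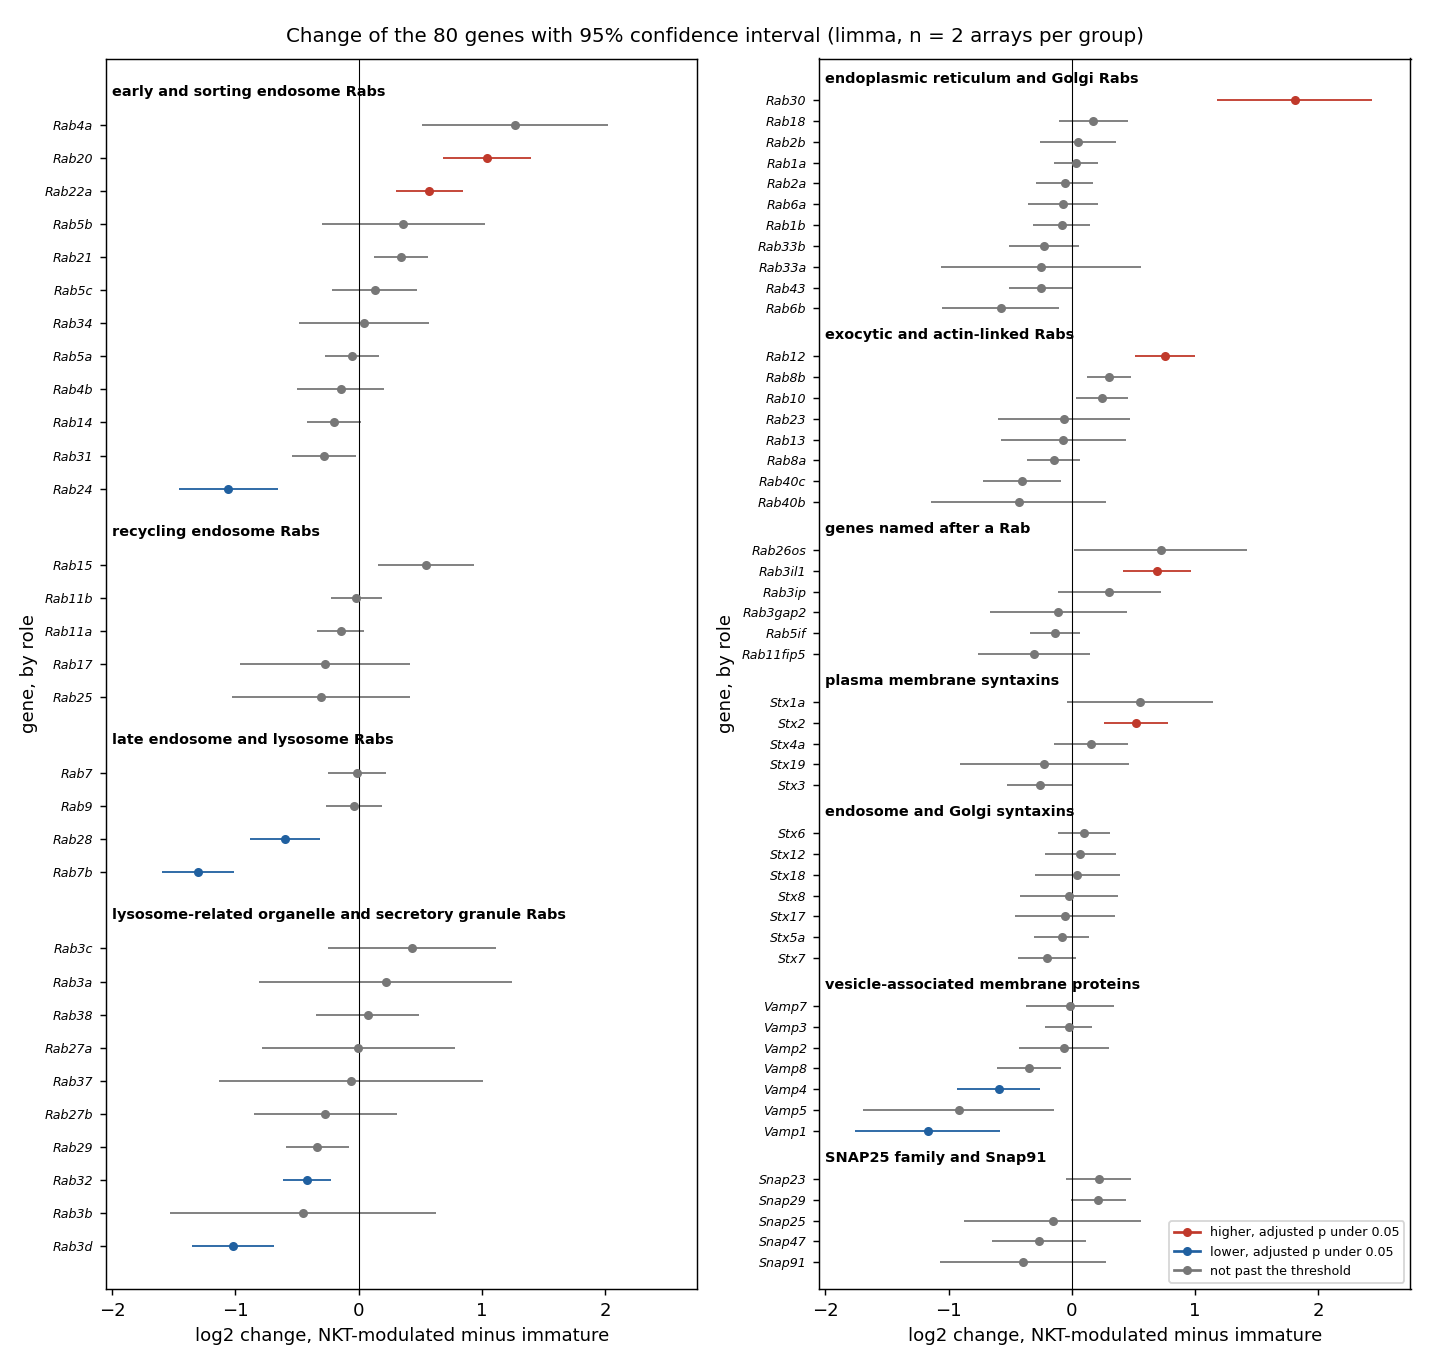
Log2 change (NKT-modulated minus immature) of all 80 members with its 95% confidence interval from limma, grouped by role. Red marks the 6 members that rose and blue the 7 that fell; grey members did not pass the threshold, and those with the widest intervals, such as Rab3b and Rab37, are dim.

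Of the 6 genes that carry a Rab name without being Rab GTPases, 1 rose, as did 5.99% of all genes. Rab3il1, an exchange factor that activates Rabs, had signals of 483 and 529 against 696 and 761. The groups did not overlap, and the change was 0.69 ± 0.11 (adjusted p = 0.0147). Its other 4 probe sets had changes from -0.41 to 0.88 and none was called, and over the mean of all 5 the change was 0.39 (adjusted p = 0.274). Leaving out any single array gave Rab3il1 adjusted p from 0.0538 to 0.0895. Its relative Rab3ip had a change of 0.31 (adjusted p = 0.340), and Rab26os had signals of 68.7 and 62.4 against 141 and 84.3, with a change of 0.72 (adjusted p = 0.188).

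On the SNARE side, 1 of the 5 syntaxins of the plasma membrane rose and 0 fell, against 5.99% and 6.9% of all genes. Stx2 had signals of 478 and 563 in immature DC against 673 and 651. The groups did not overlap, and the change was 0.52 ± 0.11 (adjusted p = 0.0308). Without further normalization its change was 0.34 (adjusted p = 0.210), and leaving out any single array it missed the threshold, with adjusted p from 0.0942 to 0.146.

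Stx3, a partner of SNAP23 in cytokine release, had signals of 2144 and 2649.8 against 1806 and 2048, and an interval from -0.52 to 0.003. Stx4a (Stx4), the general syntaxin of exocytosis, had signals of 1118 and 1024 against 1085 and 1093, with overlap and an interval from -0.14 to 0.46. Stx11, a syntaxin of lymphocyte granules, and the recycling Rab Rab35 had no probe set annotated with their symbol alone. Probe sets with several symbols or none were not searched for them.

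None of the 7 syntaxins placed by hand with endosomes and Golgi, Stx17 and Stx18 among them, was called by limma through its brightest probe set. Of the 7, 0 had an unadjusted limma p under 0.05, against 28.2% of all genes. Their changes lay between -0.20 and 0.10. Stx7, a syntaxin of late endosomes, had signals of 5024 and 4790.4 against 4208 and 4410.2, with an interval from -0.44 to 0.04. Stx6, which with VAMP3 serves delivery of TNF from the Golgi, had signals of 3813 and 4646 against 4615 and 4508, with overlap. Its change was 0.10, but a dimmer probe set was called, with signals of 575 and 685 against 798 and 839.97 and a change of 0.54 ± 0.10 (adjusted p = 0.0264).

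Of the 7 vesicle-associated membrane proteins 2 fell and 0 rose, against 6.9% and 5.99% of all genes. All 7 had a change below 0, as did 6827 of 12393 genes. The smallest were Vamp7 at -0.01 and Vamp3 at -0.02, which turned to 0.05 and 0.01 after cyclic loess. Vamp1, best known from synaptic vesicles, had signals of 126 and 118 against 46.95 and 37.3. The groups were well apart, with a change of -1.17 ± 0.24 (adjusted p = 0.0323), but the gene was dim. Its other probe set was not called, with a change of -0.54 (adjusted p = 0.531, limma). Leaving out any array gave Vamp1 adjusted p from 0.0900 to 0.167.

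Vamp4, a SNARE of traffic from endosomes to the Golgi, had signals of 3374 and 4609.6 against 2418 and 2795. Its groups did not overlap, although the immature arrays differed from each other. Vamp4 had a change of -0.59 ± 0.14 (adjusted p = 0.0451), while its other probe sets, at -0.25 and -0.47, were not called. It stood nearest to the threshold of the 13 and missed it after cyclic loess (adjusted p = 0.0683), with adjusted p from 0.0120 to 0.197 over its alternatives. It was 0.136 without the immature replicate 2, and 0.197 and 0.0732 without the NKT-modulated replicates 1 and 2 in turn. Vamp8, a SNARE of late endosomes and of secretory granules, had signals of 2022 and 2608 against 1839 and 1644 and a change of -0.35 ± 0.11 (adjusted p = 0.101). Vamp5 had signals of 168 and 142 against 51.8 and 87.9 and a change of -0.92 ± 0.32 (adjusted p = 0.136).

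Vamp3, a SNARE of recycling endosomes, had signals of 4033 and 4175 against 4149.9 and 3887. The groups overlapped, and the interval ran from -0.21 to 0.17. Vamp7, a SNARE of lysosome exocytosis, had signals of 986 and 857 against 832 and 812, and an interval from -0.37 to 0.35. Vamp2 had a change of -0.06 (adjusted p = 0.856).

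None of the 5 Snap genes was called by limma, and 0 had an unadjusted p under 0.05, against 12.9% and 28.2% of all genes. Snap23, the widely expressed partner of syntaxins at the plasma membrane, had signals of 1749.7 and 2268 against 2148 and 2349.8. After normalization the groups did not overlap, and the interval ran from -0.05 to 0.48. Snap29 had a change of 0.22 (adjusted p = 0.212) and Snap47 one of -0.27 (adjusted p = 0.362). Snap25, the neuronal member, had signals of 4.76 and 12.9 against 11.3 and 2.20, below the pseudocount of 16 in all 4 arrays.

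**Figure D3:**
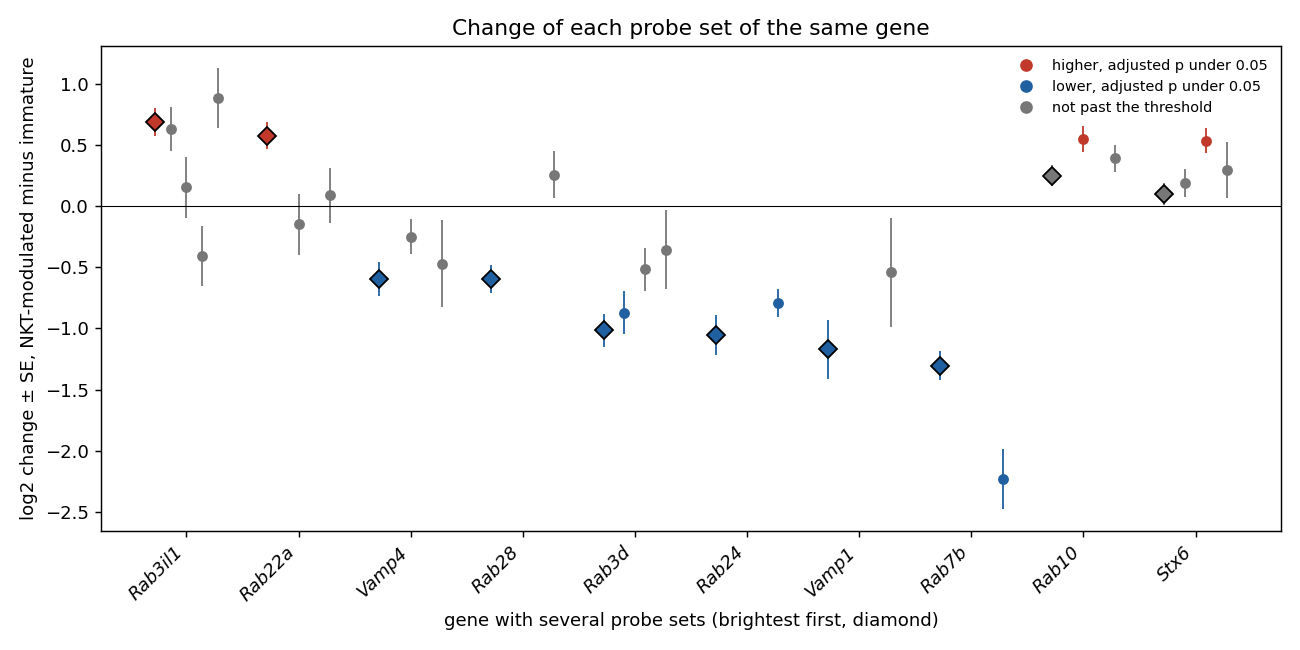
Log2 change with its SE for each probe set of the called members that have several, and of Rab10 and Stx6; diamonds are the brightest probe sets. A further probe set was called in the same direction for Rab7b, Rab24 and Rab3d, and 0 members had calls in opposite directions.

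Probe sets give a second reading of the same RNA. The 80 members had 160 probe sets, of which 8 were higher and 10 lower (11.2%), against 11.1% of all probe sets. Of 44 members with several probe sets, 8 were called by the brightest, and of all genes 12.9% were called. For 3 of those 8 (Rab7b, Rab24 and Rab3d) another probe set was called as well, and 2 genes, Rab10 and Stx6, were called by a dimmer probe set alone. The same counts were not made for all genes with several probe sets, so these describe single genes only.

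Signal strength set how small a change could be seen. Of the 80 members 60 had a mean signal of at least 100, and 12 of these were called (20.0%), against 19.7% of all genes that bright. Of the 20 dim members 1 was called, Vamp1 (5.0%), against 12.9% of all genes, bright and dim together. The share called among all dim genes was not computed. Several dim members are known from neurons or epithelia: Rab6b had signals from 1.25 to 11.1, Stx19 from 3.29 to 14.2, and Rab25 from 14.4 to 33.8.

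**Figure D4:**
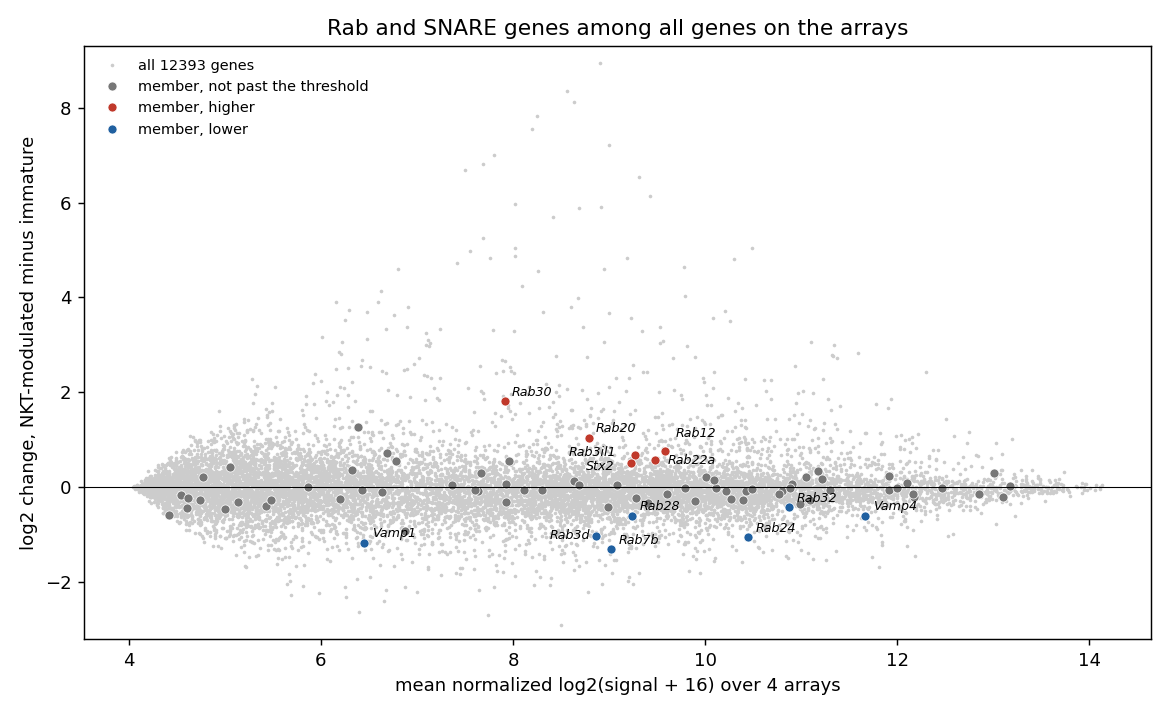
Log2 change against mean normalized log2(signal + 16) for all 12393 genes (light grey) and the 80 members. The members lie within the cloud of all genes, between -1.30 (Rab7b) and 1.81 (Rab30), whereas other genes reached 8.94.

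Other parts of the vesicle machinery were read from a further list. This list, drawn up by function, held SNAREs with other names, SM proteins, fusion ATPase parts, Rab exchange factors, GTPase-activating proteins, effectors and the exocyst; 85 of its 127 genes were measured, and 4 rose and 5 fell (10.6%, against 12.9% of all genes). Its median log2 change was -0.07. Sytl2, a Rab27 effector that docks granules, had signals of 7.22 and 23.4 in immature DC against 229 and 228. It rose by 3.12 ± 0.33 (adjusted p = 0.00293, limma). Of the 12 T and NKT cell markers 8 rose too, and the part of T cell RNA in the rise of Sytl2 was not tested.

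Stxbp3, the SM protein that binds Stx4, had signals of 1584 and 2094 against 2799 and 3131 and rose by 0.74 ± 0.12 (adjusted p = 0.0135). Appl1, an effector of Rab5, had signals of 238 and 307 against 404 and 423 and rose by 0.79 ± 0.14 (adjusted p = 0.0211). Tbc1d8, of the family of Rab GTPase-activating proteins, rose by 0.45 ± 0.11 (adjusted p = 0.0480).

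Mical1, an actin-oxidising Rab effector, had signals of 2041 and 2255 against 1119 and 1106. The groups were far apart, and it fell by 0.85 ± 0.08 (adjusted p = 0.00234). Tbc1d22a and Tbc1d14, also of the GTPase-activating family, fell by 0.58 ± 0.10 and 0.55 ± 0.10, and Rufy1, an endosomal effector of Rab4 and Rab14, fell by 0.50 ± 0.11 (adjusted p = 0.0196, 0.0197 and 0.0424). The last of the 5 was Use1, a SNARE of the endoplasmic reticulum, named here after its values were seen; it fell by 0.48 ± 0.10 (adjusted p = 0.0285). Leaving out single arrays left 1 or 2 of the list higher and 1 to 3 lower; of the 9 genes Sytl2 and Mical1 stayed past the threshold whichever array was left out, and each of the other 7 missed it at least once.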

How the data were processed

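RNA was measured on 4 Affymetrix arrays. The deposited table holds linear intensities, 1 signal per probe set; the arrays were scanned and analysed with GCOS, per the submitters' processing notes. Version, summary method and scaling are not stated in the labels or the file. Design text and labels differ on the number of amplification cycles, and the array type and replicate number in the design text are not those of the platform annotation and of the arrays analysed here. The median signal of an array was 129 to 158; the number of arrays limits the precision.

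Of 22690 probe sets, 64 controls were left out. The log2 of (signal + 16) was quantile normalized; changes on this scale are smaller than those of the signals for dim genes. The comparison used limma 3.58.1 under R 4.3.3 (two-sided, eBayes with intensity trend; 2 residual and 4.13 prior degrees of freedom), Benjamini-Hochberg adjusted over 22626 probe sets, threshold 0.05. The steps were tested on simulated data. Symbols came from the platform annotation, which gave 20380 probe sets 1 symbol, 691 several and 1555 none here. Of the 20380, 20351 had a gene ID found in RefSeq (GRCm38.p6) and took its symbol, whether or not it differed.

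Members and lists were chosen with earlier results of these data known; roles were assigned by hand. Named by rule, with 4 signals, were every called member and members fixed for roles in dendritic cells or lymphocytes; of the partner list, the 4 largest rises and falls. Other members named were chosen after their values were seen, also those with 4 signals (Rab4a, Rab8b, Rab15, Rab26os, Vamp5 and Snap25). Alternatives were normalization, pseudocount, a filter on dim probe sets, the variance trend, the threshold, the adjustment, the probe set used and leaving out each array.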

Additional observations from a re-analysis of the deposited data

How the results depend on the processing

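Under the alternatives at 0.05, Rab7b and Rab3d were called each time; the other 11 called members kept their direction but missed the threshold at least once. Counts within 1.5 times of those reported are left out. Without further normalization 3 members and 2 partner genes rose (4.51% of all genes did), and the members' median change was -0.15. After cyclic loess 7 partner genes rose (6.78% of all genes), and 9 with a filter on mean signals under 100 (11.7% of the genes kept). Without the intensity trend 2 members rose and 3 fell, and 1 partner gene rose and 1 fell (3.1% and 2.19% of all genes). With the mean over probe sets 4 members fell (7.27% of all genes). At the adjusted p of 0.001 in limma, 0 members and 0 partner genes passed, against 1.23% of all genes; 25 members (31.2%) and 22 partner genes (25.9%) had an unadjusted p under 0.05, against 28.2% of all genes.

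Leaving out an array gave 1 to 3 members higher and 2 to 4 lower, 1 to 2 partner genes higher and 1 to 3 lower (3.2% to 4.12% and 2.46% to 3.28% of all genes), and a median change of -0.12 to 0.013. With a single array left in a group, that array is assumed to vary like those of the other group. Without immature replicate 1, immature replicate 2, NKT-modulated replicate 1 and NKT-modulated replicate 2, in that order, 7, 6, 3 and 3 of the 13 called members stayed past the threshold.

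Uncalled genes with changes near 0 turned sign. Without further normalization Rab38 was at -0.14 and Rab7 at 0.022. After cyclic loess Rab27a was at 0.076, Rab5a at 0.016, Rab7 at 0.023, Vamp3 at 0.0081 and Vamp7 at 0.049, and with a pseudocount of 1 Rab27a was at 0.0095. With the probe set of smallest p Rab14 was at 0.51 and Rab7 at 0.14, and with the mean over probe sets Rab14 was at 0.094, Rab7 at 0.061 and Vamp3 at 0.041. Leaving out each array gave changes from -0.31 to 0.32 for Rab27a, -0.13 to 0.094 for Rab7, -0.071 to 0.019 for Vamp3, -0.21 to 0.19 for Vamp7, -0.12 to 0.012 for Rab5a and -0.025 to 0.17 for Rab38. Their adjusted p was 0.183 or higher in each of these cases. The cause of these shifts was not tested. No paired analysis was possible because the labels give the groups no shared replicate numbers. For members with signals near the pseudocount of 16, such as Snap25, the scale limits what could be seen.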
